A study of Homo sapiens with 12 samples.

Results

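The 37 genes described here encode the core machinery of apoptosis, from the death receptors at the cell surface and their adaptors to the inhibitor of apoptosis proteins (IAPs), the BCL2 family, the apoptosome and the caspases. They were chosen by gene symbol, and each symbol was read from the transcript row with the most counts. All 37 were found among the 23064 gene symbols of the deposited tables, and all 37 had enough counts to be tested in both cell lines. The transcriptome of CAL-29 and 5637 cells, established human bladder carcinoma lines labelled as wild type, was sequenced 3 days after transfection with siKMT9α#1, an siRNA against the alpha subunit of the lysine methyltransferase KMT9, or with the control siRNA siCtrl, to find genes whose expression changes upon KMT9α knockdown. There were 3 libraries for each siRNA in each line, 12 in all. CAL-29 cells received less siRNA than 5637 cells, with another transfection reagent and in another medium, so the line, the dose, the reagent and the medium cannot be told apart. A single siRNA against KMT9α was sequenced, which is also a limit of both knockdown groups. The labels do not say whether the 3 libraries of a group came from separate cultures, so every p-value measures the spread between these libraries, which may be technical.

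Apoptosis runs along 2 arms. In the extrinsic arm, ligand-bound death receptors recruit the adaptor FADD and the initiator caspases 8 and 10, a step that CFLAR (c-FLIP) holds back. In the intrinsic arm, BH3-only proteins sense stress and tip the balance between pro-survival and pore-forming BCL2 proteins at the mitochondrion, cytochrome c escapes and APAF1 assembles the apoptosome on which caspase 9 is activated, while IAPs restrain caspases and channel death-receptor signals towards survival. Many of these proteins are controlled by cleavage, binding or degradation, so transcript levels alone do not say whether cells die.

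N6AMT1, the gene of KMT9α and the target of the siRNA, was at 11.4, 10.2 and 9.68 CPM (the count of a gene relative to the total of its library, scaled between the libraries of a line) in the siCtrl libraries of CAL-29 cells and at 2.82, 2.93 and 1.99 CPM with siKMT9α#1. The corresponding values in 5637 cells were 13.4, 13.2 and 13.3 CPM for N6AMT1 with siCtrl and 3.75, 2.22 and 2.56 CPM with siKMT9α#1. The groups did not overlap in either line, at −2.00 ± 0.15 in CAL-29 (log2 fold change ± SE, adjusted p = 1.33e-10) and −2.23 ± 0.12 in 5637 cells (adjusted p = 1.05e-15) (edgeR quasi-likelihood test with Benjamini-Hochberg adjustment, as for every adjusted p given here, n = 3 per group). Library totals lay between 24479348.5 and 35151256.5 counts. Of 13 urothelial and epithelial markers, 12 in CAL-29 and 11 in 5637 cells had a mean above 1 CPM in the siCtrl group. Their summed level was 15300 to 16180 CPM with siCtrl and 6827 to 6992 CPM with siKMT9α#1 in CAL-29 cells, and 10350 to 10830 against 6568 to 6788 CPM in 5637 cells. Against these sums, the mean of KRT7 rose from 77.4 to 94.2 CPM in CAL-29 cells and that of TP63 from 125 to 161 CPM in 5637 cells. Summed levels of markers of other cell types were far lower, and apart from the leukocyte list in 5637 cells their siRNA groups did not overlap. The 5 fibroblast markers went from 4.42 to 5.35 CPM with siCtrl to 2.35 to 3.58 CPM with siKMT9α#1 in CAL-29 cells, and from 40.2 to 42.5 CPM to 13.9 to 16.6 CPM in 5637 cells. The sum of the 4 endothelial markers went from 11.4 to 13.7 CPM to 5.19 to 6.92 CPM in CAL-29 cells and from 2.57 to 3.19 CPM to 0.81 to 1.22 CPM in 5637 cells. In CAL-29 cells the mean of KDR fell from 10.8 to 1.70 CPM, while that of CDH5 rose from 0.68 to 3.82 CPM. The 5 leukocyte markers went from 1.45 to 2.28 CPM to at most 3.46 CPM in CAL-29 cells, without overlap, and lay between 0.62 and 1.12 CPM in 5637 cells. In the siCtrl groups COL1A2, KDR and CD14 were the highest of their lists, while DCN, PECAM1, CD3E and LYZ each had a mean of at most 3 counts in every group and CD3E was at 0 in 5637 cells. The part of these markers in the results below was not tested.

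The siRNA and the sequences it shares with members are shown because 3 of the 5 members that fell in both lines carry the guide-seed site (60%, against 41% of all genes that fell in both lines), the complement of guide-strand bases 2 to 8 of the siRNA counted from the 5′ end, in their longest annotated 3′ UTR. Each sequence is written 5′ to 3′ on the strand of the gene, from GRCh37, the assembly that hg19 denotes, and capitals mark the 7 bases ACATTCA of that site. In N6AMT1 the printed run is the whole siRNA target, in coding exon 3. In the members it is a window of the 3′ UTR. Windows are given for 5 of the 7 members with the site, and those of TNFRSF10B and TNFRSF10D, which rose in 5637 cells (log2 fold changes 0.40 and 0.62), are not printed.
N6AMT1, chr21:30254500-30254524, minus strand: acgctgtaacaaagttcACATTCAa
BOK, chr2:242512837-242512858, plus strand: ggccctgcACATTCAatctgaa
BIRC2, chr11:102249013-102249034, plus strand: aattagtaACATTCAtgttcta
PMAIP1, chr18:57570707-57570728, plus strand: tagactgaACATTCAatataat
CFLAR, chr2:202029802-202029823, plus strand: gaatacaaACATTCAgtttgta
CFLAR, chr2:202035716-202035737, plus strand: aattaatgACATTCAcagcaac
CFLAR, chr2:202036996-202037017, plus strand: attttgatACATTCAtgacctt
DIABLO, chr12:122693078-122693099, minus strand: caggaatcACATTCAgctggtg

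Upon KMT9α knockdown, apoptosis genes moved in both directions in both lines. In CAL-29 cells, 10 of the 37 members were upregulated and 8 downregulated at an unadjusted p below 1e-06, and 19 were not called. The value 1e-06 is that of the study's methods, which do not say whether p was adjusted. Over all 14673 genes tested in CAL-29 cells, 15.0% were upregulated and 15.0% downregulated, 30.0% in all, against 48.6% of the members. In 5637 cells, 12 members were upregulated, 8 were downregulated and 17 were not called, 54.1% called against 35.6% of the 14335 genes tested, of which 18.0% were upregulated and 17.6% downregulated. At an adjusted p below 0.05, 14 members were higher and 13 lower in CAL-29 cells, 73% against 69.5% of all genes (34.3% higher and 35.2% lower), and 14 were higher and 15 lower in 5637 cells, 78.4% against 70.7% (35.1% and 35.6%). Called changes of at least 1 on the log2 scale were found in CAL-29 cells for 3 upregulated members (BIRC3, BIK and FAS) and 3 downregulated members (BOK, BIRC2 and PMAIP1), against 3.71% and 6.62% of all genes, and in 5637 cells for 1 upregulated member (BCL2L2) and 3 downregulated members (BIRC2, BOK and CASP6), against 1.90% and 5.50%. The siRNA groups did not overlap for 31 members in CAL-29 and 32 members in 5637 cells, beside 72.3% and 72.4% of all genes. With 3 libraries against 3, an exact permutation test over the libraries cannot go below 0.1, so the calls rest on the fit across all genes. The median log2 fold change of the members was 0.09 in CAL-29 and −0.01 in 5637 cells, with −0.02 and −0.01 over all genes, and their median absolute change was 0.41 and 0.34 against 0.38 and 0.32 over all genes. In bulk RNA, fewer cells of a kind and less RNA per cell cannot be told apart.

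The CAL-29 counts were the less stable of the lines. Without siCtrl replicate 2 the number of upregulated members was 6, and without siCtrl replicate 2 or any of siKMT9α#1 replicates 1, 2 and 3 the number of downregulated members was 5. Of the members called in CAL-29 cells, 55.6% were higher with TMM scaling and 70.6% when libraries were scaled by total counts. Over all called genes that share also rose, from 49.8% to 59.4%, and the median log2 fold change of all genes moved by 0.08. No called member changed sign under any of the scalings, filters, tests or left-out libraries tried.

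**Figure D1:**
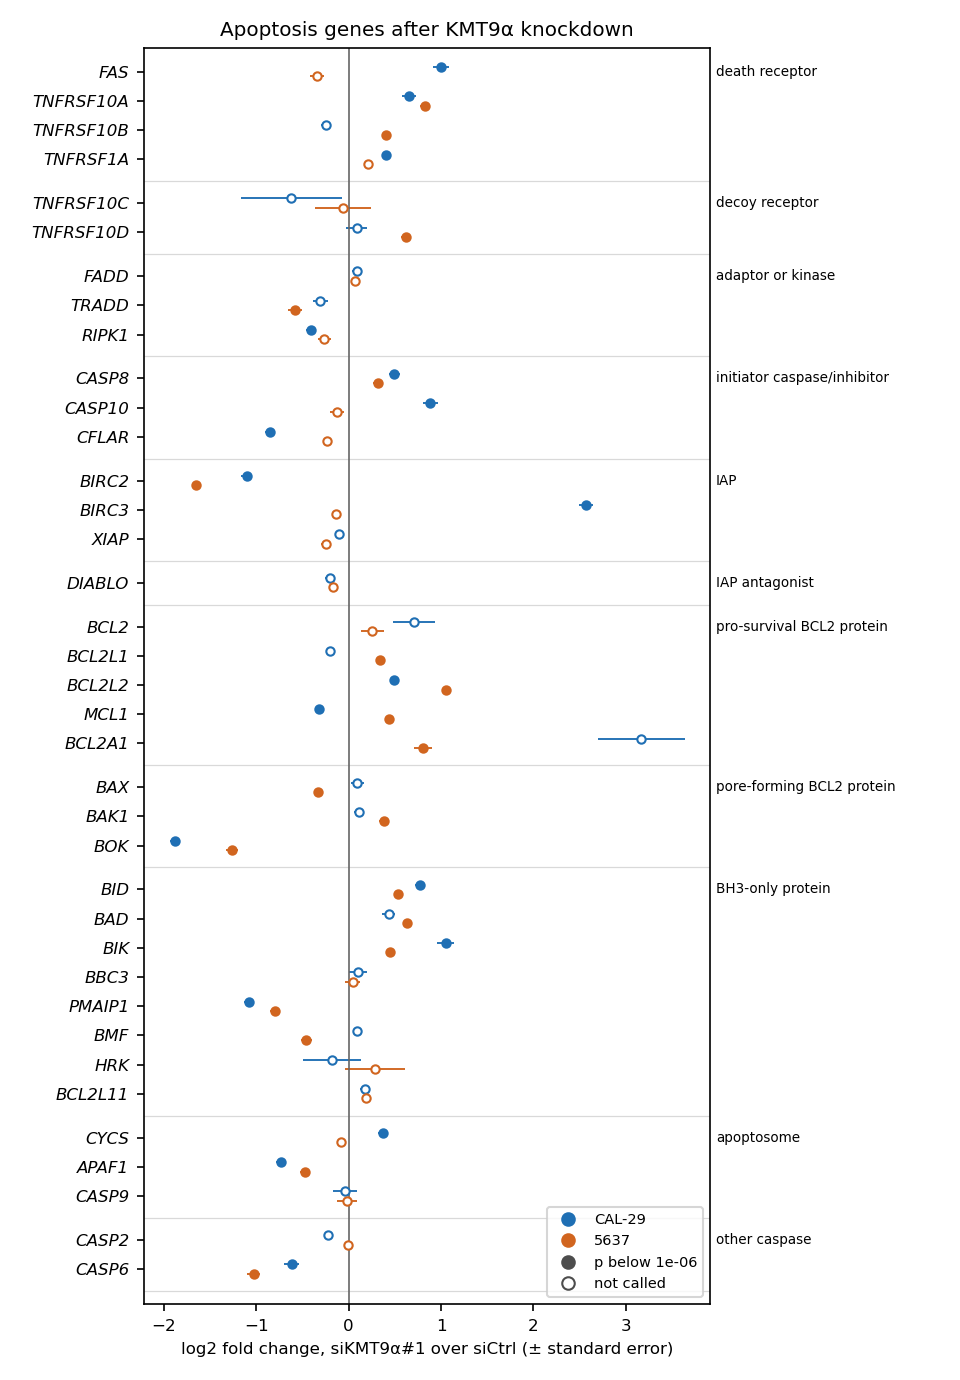
Log2 fold change of siKMT9α#1 over siCtrl (horizontal axis) for the 37 apoptosis genes, grouped by role, in CAL-29 (blue) and 5637 cells (orange). Points are estimates over 3 libraries per group, lines are ± 1 standard error, and filled points are genes with p below 1e-06. BOK, BIRC2, PMAIP1, CASP6 and APAF1 lie left of 0 in both lines, while BIRC3 and FAS lie to the right in CAL-29 cells and slightly to the left in 5637 cells.

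Between the lines, 5 members were upregulated in both (BCL2L2, BIK, BID, TNFRSF10A and CASP8) and 5 were downregulated in both (BOK, BIRC2, PMAIP1, CASP6 and APAF1), against 8.45% and 8.49% of the 13674 genes tested in both lines. MCL1 alone was called in opposite directions, a pattern shown by 1.76% of those genes. A further 5 members were called upregulated in CAL-29 cells alone (TNFRSF1A, BIRC3, CASP10, CYCS and FAS) and 6 in 5637 cells alone (BCL2A1, BAD, BAK1, TNFRSF10D, BCL2L1 and TNFRSF10B), 13.5% and 16.2% of the members against 6.42% and 9.21% of those genes. RIPK1 and CFLAR were called downregulated in CAL-29 cells alone, and TRADD, BAX and BMF in 5637 cells alone, 5.41% and 8.11% of the members against 5.89% and 8.76% of those genes. The remaining 10 members, BCL2, BCL2L11, DIABLO, XIAP, FADD, TNFRSF10C, BBC3, CASP9, CASP2 and HRK, were called in neither line, 27% against 51.0% of those genes. A call in a single line does not show that the lines differ, which is tested separately further on.

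Among the 4 death receptors, TNFRSF10A rose in both lines, FAS and TNFRSF1A were called in CAL-29 cells and TNFRSF10B in 5637 cells. TNFRSF10A encodes death receptor 4, a receptor for the ligand TRAIL. It was at 21.5, 17.7 and 19.1 CPM with siCtrl and at 32.2, 30.4 and 29.2 CPM with siKMT9α#1 in CAL-29 cells (log2 fold change 0.66 ± 0.08, adjusted p = 2.12e-07). In 5637 cells, TNFRSF10A was at 20.2, 20.5 and 18.9 CPM with siCtrl and at 34.7, 33.9 and 37.0 CPM with siKMT9α#1 (0.83 ± 0.06, adjusted p = 3.43e-13). All 6 knockdown libraries were above all 6 control libraries, and the levels with siCtrl in the lines lay side by side. The CAL-29 call of TNFRSF10A missed the threshold without siCtrl replicate 2 (log2 fold change 0.60) or siKMT9α#1 replicate 1 (0.62).

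FAS, the receptor for FAS ligand, was at 10.1, 9.46 and 10.1 CPM with siCtrl and 19.8, 19.8 and 19.7 CPM with siKMT9α#1 in CAL-29 cells, an increase of 100.1% (SE of the log2 fold change 0.08, adjusted p = 1.37e-09). In 5637 cells FAS stood at 18.6, 17.3 and 19.2 CPM with siCtrl and 16.1, 13.4 and 14.2 CPM with siKMT9α#1, a log2 fold change of −0.34 ± 0.07 that did not reach the threshold (adjusted p = 0.000232). The CAL-29 knockdown libraries lay near the 5637 control libraries for FAS, but CPM were scaled separately in each line, so their order is not resolved. In 5637 cells the knockdown libraries were the lower ones. ACTA2, on the opposite strand, shares 10.7% of the exon bases of FAS. The log2 fold change of ACTA2 was 0.18 in CAL-29 and −1.37 in 5637 cells, and the use of strand in counting is not given. TNFRSF1A, the TNF receptor, rose in CAL-29 cells (0.41 ± 0.05, adjusted p = 1.63e-07) and had a log2 fold change of 0.22 ± 0.04 in 5637 cells (adjusted p = 1.60e-05, not called). Its CAL-29 call was missed without siCtrl replicate 2 (0.42) or siKMT9α#1 replicate 3 (0.40). TNFRSF10B, death receptor 5, rose in 5637 cells (0.40 ± 0.03, adjusted p = 1.26e-11), whereas its value in CAL-29 cells was −0.24 ± 0.05 (adjusted p = 0.000402, not called).

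The decoy receptors bind TRAIL without passing on a full death signal. TNFRSF10D rose in 5637 cells, from 22.4 to 24.0 CPM over the siCtrl libraries to 35.4 to 36.3 CPM over the knockdown libraries (0.62 ± 0.05, adjusted p = 3.44e-11), and had a value of 0.09 ± 0.12 in CAL-29 cells. TNFRSF10C was hardly detected. Its counts ran from 6 to 15.5 in the siCtrl and from 1.5 to 12.5 in the siKMT9α#1 libraries of CAL-29 cells, so a change was not detectable at this depth.

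Downstream of the receptors, transcripts of the adaptors and the kinase were level or lower. Of the initiator caspases and their inhibitor, CASP8 was called in both lines, and CASP10 and CFLAR in CAL-29 cells alone. FADD, which links receptors to caspases, had log2 fold changes of 0.09 ± 0.05 in CAL-29 and 0.07 ± 0.04 in 5637 cells and was called in neither. TRADD, the adaptor of the TNF receptor, fell in 5637 cells by 0.58 on the log2 scale (SE 0.08, adjusted p = 1.21e-07; not called without siKMT9α#1 replicate 2, at −0.50) and was at −0.30 ± 0.08 in CAL-29 cells. RIPK1, the kinase that the TNF receptor complex recruits, fell in CAL-29 cells by 0.40 (SE 0.05, adjusted p = 1.17e-06). This RIPK1 call was missed without siCtrl replicate 2 or without any of the 3 siKMT9α#1 replicates, at values from −0.41 to −0.37, and with scaling by total counts, at −0.32. The RIPK1 value in 5637 cells was −0.26 ± 0.07, not called.

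CASP8, the main initiator caspase of the extrinsic arm, rose modestly in both lines. Its level was 31.3, 30.8 and 29.1 CPM with siCtrl and 42.2, 44.2 and 42.0 CPM with siKMT9α#1 in CAL-29 cells (0.49 ± 0.06, adjusted p = 3.06e-07). In 5637 cells CASP8 was at 35.0, 33.4 and 33.6 CPM with siCtrl and 44.0, 40.8 and 42.4 CPM with siKMT9α#1 (0.32 ± 0.05, adjusted p = 1.90e-06). The groups did not overlap, but CASP8 lay close to the threshold. In CAL-29 cells the call was lost without siCtrl replicate 2 (0.51) or siKMT9α#1 replicate 2 (0.47) or 3 (0.51), and in 5637 cells without any of the 6 libraries, at values from 0.29 to 0.35, and in 4 other settings, at values from 0.27 to 0.32.

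CASP10, a second initiator caspase and the neighbour of CASP8 on chromosome 2, was at 17.9, 18.1 and 14.6 CPM with siCtrl and 32.6, 31.2 and 29.4 CPM with siKMT9α#1 in CAL-29 cells (0.88 ± 0.08, adjusted p = 6.04e-09). In 5637 cells it was at 15.5, 14.4 and 14.3 CPM with siCtrl and 14.1, 12.8 and 13.6 CPM with siKMT9α#1 (−0.13 ± 0.07, adjusted p = 0.132). The CASP10 rise in CAL-29 cells was clear of all control libraries of both lines. CFLAR, the catalytically inactive relative that blocks caspase-8 activation and lies in the same gene cluster, fell in CAL-29 cells from 95.0, 88.7 and 83.0 CPM to 50.5, 48.2 and 49.4 CPM (−0.85 ± 0.06, adjusted p = 2.16e-11), and was at 44.7, 43.0 and 43.4 CPM with siCtrl and 37.8, 36.3 and 37.8 CPM with siKMT9α#1 in 5637 cells (−0.23 ± 0.05, adjusted p = 0.000120, not called). CFLAR was the only member whose most abundant transcript row differed between the lines. Over its 8 transcript rows, which share reads, the log2 fold change ran from −1.10 to −0.28 in CAL-29 cells, with 7 rows called, and from −0.44 to 0.33 in 5637 cells, with 1 row called. CFLAR values per library were given after its fold changes had been seen.

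The IAP genes gave the members' largest contrast. BIRC2 (cIAP1) and BIRC3 (cIAP2), close relatives that lie next to each other on chromosome 11 and encode ubiquitin ligases of the TNF receptor complex, moved in opposite directions in CAL-29 cells. BIRC2 was at 75.9, 75.8 and 76.9 CPM with siCtrl and 32.9, 34.8 and 39.0 CPM with siKMT9α#1 in CAL-29 cells (−1.10 ± 0.06, adjusted p = 1.10e-12). In 5637 cells BIRC2 started higher, at 219.6, 224 and 212 CPM, and fell to 66.6, 71.1 and 70.3 CPM (−1.65 ± 0.04, adjusted p = 8.22e-25). The BIRC2 knockdown libraries were below every control library of the same line.

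BIRC3 was at 26.9, 21.7 and 20.7 CPM with siCtrl and 144, 136 and 130.3 CPM with siKMT9α#1 in CAL-29 cells. The log2 fold change of 2.57 ± 0.07 (adjusted p = 3.80e-17) was the largest among the members called in CAL-29 cells. In 5637 cells BIRC3 was at 268, 259 and 259.9 CPM with siCtrl and 235, 234 and 249 CPM with siKMT9α#1 (−0.13 ± 0.03, adjusted p = 0.000964, not called). Even after its rise, BIRC3 in CAL-29 cells stayed below every 5637 library. XIAP, which binds and blocks caspases directly, had values of −0.10 ± 0.05 and −0.24 ± 0.05, and DIABLO (SMAC), the mitochondrial protein that displaces IAPs from caspases, of −0.20 ± 0.05 and −0.17 ± 0.04 in CAL-29 and 5637 cells. Neither gene was called in either line.

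Of the 5 pro-survival BCL2 genes, 4 were called upregulated in 5637 cells, 80% against 18.0% of all genes. In CAL-29 cells BCL2L2 was called upregulated and MCL1 downregulated, 20% each against 15.0% each of all genes. At an adjusted p below 0.05, 3 were higher and 2 lower in CAL-29 cells (all genes 34.3% and 35.2%). At that threshold 4 were higher and 0 lower in 5637 cells (all genes 35.1% and 35.6%). BCL2L2 encodes BCL-w. It was at 65.5, 67.1 and 67.1 CPM with siCtrl and 93.7, 94.6 and 93.3 CPM with siKMT9α#1 in CAL-29 cells (0.50 ± 0.05, adjusted p = 7.80e-09). In 5637 cells BCL2L2 went from 36.6, 35.4 and 37.3 CPM to 76.6, 75.8 and 74.2 CPM (1.05 ± 0.04, adjusted p = 1.38e-18). The libraries of each group lay within a few CPM of one another and far from the other group. The annotation places 16.8% of the exon bases of BCL2L2 also in the read-through gene BCL2L2-PABPN1, whose log2 fold change was 0.26 in CAL-29 and 0.01 in 5637 cells, and reads of these shared bases cannot be told apart.

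MCL1, a short-lived BCL2 relative that holds BAK1 and BH3-only proteins in check, was at 507, 509 and 510.4 CPM with siCtrl and 415, 405 and 403 CPM with siKMT9α#1 in CAL-29 cells (−0.32 ± 0.05, adjusted p = 2.49e-06). In 5637 cells MCL1 was at 351, 351 and 339.7 CPM with siCtrl and 468, 468 and 472 CPM with siKMT9α#1 (0.43 ± 0.03, adjusted p = 2.40e-13). The control libraries were the higher ones in CAL-29 cells and the lower ones in 5637 cells, with no overlap in either. The MCL1 call in CAL-29 cells was lost without siCtrl replicate 2 or 3 or any siKMT9α#1 replicate, at values from −0.33 to −0.31, and with 2 other scalings, at −0.31 and −0.24. BCL2L1, the gene of BCL-XL, rose in 5637 cells (0.34 ± 0.04, adjusted p = 3.29e-09) and had a value of −0.20 ± 0.05 in CAL-29 cells (adjusted p = 0.00110, not called).

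BCL2A1, a further anti-apoptotic relative, rose in 5637 cells from 5.95, 6.55 and 6.70 CPM to 10.6, 12.3 and 10.6 CPM (0.80 ± 0.10, adjusted p = 1.87e-08). In CAL-29 cells BCL2A1 was almost absent from the siCtrl libraries, with 1.5, 4 and 2 counts, against 26, 30.5 and 30 counts with siKMT9α#1. The ratio of the summed CAL-29 counts of BCL2A1, scaled for library size, was 9.95 (exact 95% interval 4.50 to 22.2, which covers counting error only). It did not reach the threshold (adjusted p = 4.58e-06), and its values are given after having been seen. BCL2 itself had log2 fold changes of 0.71 ± 0.23 in CAL-29 and 0.26 ± 0.13 in 5637 cells and was called in neither.

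Of the 3 pore-forming genes, BOK fell steeply in both lines, while BAX and BAK1 were called in 5637 cells. BOK, a BAX relative that can form pores without BH3-only activators, was at 83.7, 81.8 and 84.7 CPM with siCtrl and 22.2, 22.5 and 23.4 CPM with siKMT9α#1 in CAL-29 cells (−1.88 ± 0.06, adjusted p = 5.75e-17). In 5637 cells BOK fell from 28.1, 28.4 and 28.7 CPM to 11.5, 11.9 and 12.2 CPM (−1.26 ± 0.06, adjusted p = 2.15e-16). The CAL-29 knockdown libraries were thus below the 5637 control libraries, although the CAL-29 controls were the highest of the 4 groups. The antisense gene BOK-AS1, which shares 7.5% of the exon bases of BOK, had a log2 fold change of −1.43 in CAL-29 and −0.97 in 5637 cells, and whether the counting used the strand of the reads is not given in the sources used here. BAX fell in 5637 cells (−0.33 ± 0.04, adjusted p = 1.30e-07; not called without siKMT9α#1 replicate 3, at −0.32) and was at 0.09 ± 0.07 in CAL-29 cells. BAK1 rose in 5637 cells (0.39 ± 0.06, adjusted p = 7.87e-07) and was at 0.11 ± 0.05 in CAL-29 cells. The BAK1 call was lost without siCtrl replicate 1 or 3 or siKMT9α#1 replicate 2 or 3, at values from 0.35 to 0.37, and with scaling by total counts or upper quartile, at 0.33 and 0.34.

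**Figure D2:**
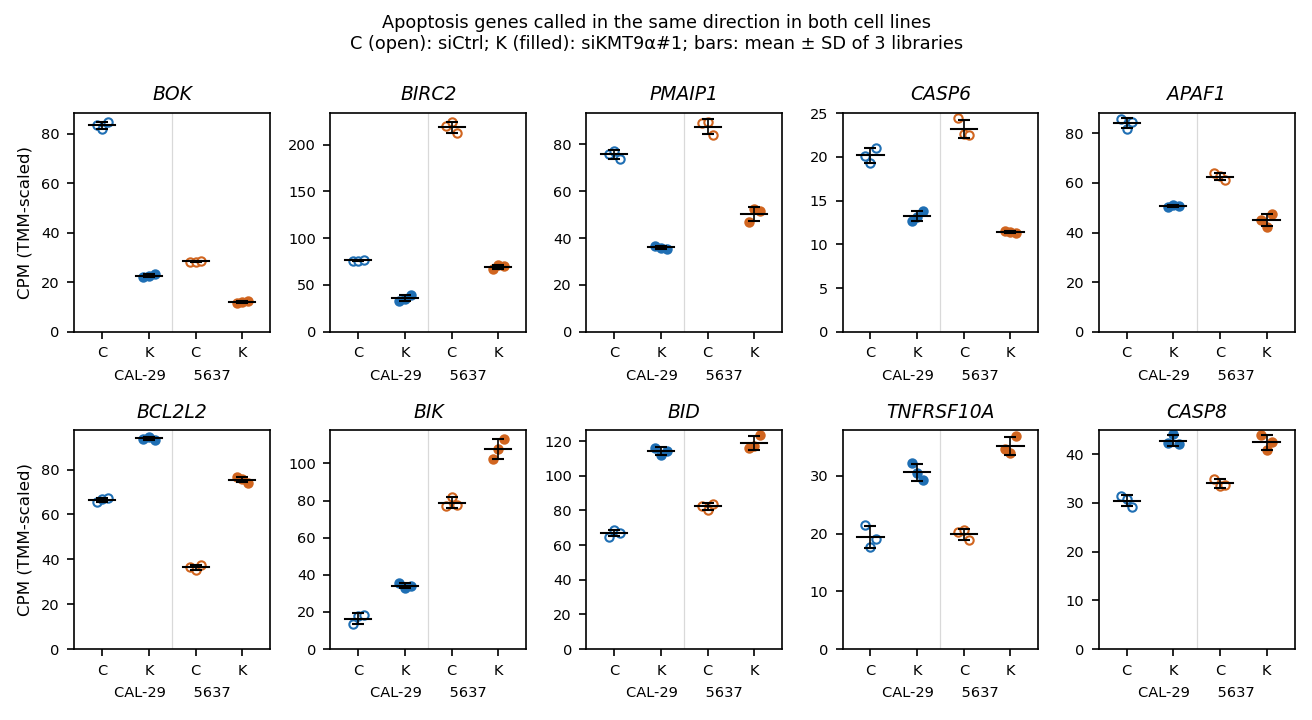
Level in CPM (vertical axes, starting at 0) of the 10 apoptosis genes called in the same direction in both lines, in every library. Open points (C) are siCtrl and filled points (K) siKMT9α#1 libraries, blue for CAL-29 and orange for 5637, and bars are the mean ± SD of 3 libraries. In the top row all knockdown libraries of a line lie below its controls, as for BOK in CAL-29 cells (22.2 to 23.4 against 81.8 to 84.7 CPM), and in the bottom row all lie above.

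The 8 BH3-only genes split between rising and falling. BIK and BID rose in both lines, BAD rose in 5637 cells, PMAIP1 fell in both lines and BMF fell in 5637 cells, while BBC3, HRK and BCL2L11 were not called. PMAIP1 (NOXA), which neutralises MCL1, was at 76.0, 77.4 and 73.7 CPM with siCtrl and 36.5, 35.9 and 35.5 CPM with siKMT9α#1 in CAL-29 cells (−1.07 ± 0.05, adjusted p = 1.87e-13). In 5637 cells it was at 89.3, 89.5 and 83.8 CPM with siCtrl and 46.9, 52.5 and 51.4 CPM with siKMT9α#1 (−0.80 ± 0.05, adjusted p = 1.95e-15). The knockdown libraries of PMAIP1 lay below the control libraries of both lines.

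BIK, which acts at the endoplasmic reticulum, was at 13.3, 17.9 and 18.2 CPM with siCtrl and 35.5, 33.0 and 34.2 CPM with siKMT9α#1 in CAL-29 cells (1.05 ± 0.09, adjusted p = 1.87e-09). In 5637 cells BIK was several times more abundant with siCtrl, at 76.9, 82.1 and 77.5 CPM, and reached 103, 108 and 113 CPM with siKMT9α#1 (0.45 ± 0.04, adjusted p = 6.76e-11). BID, which caspase 8 cleaves to connect the extrinsic with the intrinsic arm, was at 64.9, 68.6 and 67.1 CPM with siCtrl and 116, 112 and 114 CPM with siKMT9α#1 in CAL-29 cells (0.77 ± 0.05, adjusted p = 8.58e-12). Its 5637 values were 82.8, 80.1 and 83.9 CPM for BID with siCtrl and 116, 117 and 123 CPM with siKMT9α#1 (0.53 ± 0.04, adjusted p = 3.78e-13). Neither gene had overlapping groups, and BID reached nearly the same level in both lines after knockdown.

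BAD, which binds BCL-XL and is inactivated by survival kinases, rose in 5637 cells (0.63 ± 0.05, adjusted p = 1.17e-12) and had a value of 0.43 ± 0.07 in CAL-29 cells that fell short of the threshold (adjusted p = 1.36e-05). BMF, a sensor of cell detachment, fell in 5637 cells (−0.46 ± 0.06, adjusted p = 4.83e-08) and was at 0.09 ± 0.05 in CAL-29 cells. BCL2L11 (BIM), an activator of BAX and BAK1, had values of 0.18 ± 0.05 and 0.19 ± 0.04 in CAL-29 and 5637 cells. BBC3 (PUMA), best known as a p53 target, had values of 0.11 ± 0.10 and 0.04 ± 0.08. HRK was covered by 21.5 to 41.5 counts per library in CAL-29 and 15.5 to 25.5 in 5637 cells, too few to resolve its values of −0.18 ± 0.32 and 0.28 ± 0.33.

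Within the apoptosome, APAF1 fell in both lines, CYCS rose in CAL-29 cells and CASP9 was not called. APAF1, the scaffold that binds cytochrome c, was at 85.8, 81.8 and 84.7 CPM with siCtrl and 50.1, 51.0 and 50.5 CPM with siKMT9α#1 in CAL-29 cells (−0.73 ± 0.05, adjusted p = 3.53e-11). In 5637 cells APAF1 was at 63.9, 62.7 and 61.1 CPM with siCtrl and 45.2, 42.3 and 47.4 CPM with siKMT9α#1 (−0.47 ± 0.05, adjusted p = 3.65e-10). Its groups were apart in both lines, and its 5 transcript rows gave nearly the same values. ANKS1B, on the opposite strand, shares 9.67% of the exon bases of APAF1. The log2 fold change of ANKS1B was −0.79 in CAL-29 and −0.59 in 5637 cells, and the use of strand in counting is not given. CYCS, the cytochrome c gene, rose in CAL-29 cells by 0.37 ± 0.05 (adjusted p = 1.39e-06), a call lost without siCtrl replicate 2 or any siKMT9α#1 replicate, at values from 0.35 to 0.40, and with upper quartile scaling, at 0.34. Its value in 5637 cells was −0.09 ± 0.03, not called. CASP9, the apoptosome's initiator caspase, had values of −0.04 ± 0.13 and −0.02 ± 0.11.

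CASP6, an executioner caspase that cleaves nuclear lamins, was at 20.2, 19.3 and 21.1 CPM with siCtrl and 12.7, 13.1 and 13.8 CPM with siKMT9α#1 in CAL-29 cells (−0.61 ± 0.08, adjusted p = 1.16e-06). In 5637 cells CASP6 was at 24.4, 22.7 and 22.5 CPM with siCtrl and 11.5, 11.4 and 11.3 CPM with siKMT9α#1 (−1.03 ± 0.07, adjusted p = 1.17e-13). All knockdown libraries lay below all control libraries. The CAL-29 call of CASP6 was lost without siCtrl replicate 2 or 3 or any siKMT9α#1 replicate, at values from −0.64 to −0.57, and with scaling by total counts, at −0.53, while the 5637 call was kept in every setting. CASP2, an initiator caspase linked to DNA damage and chromosome number, had values of −0.22 ± 0.05 in CAL-29 and −0.01 ± 0.04 in 5637 cells and was called in neither.

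To ask which members responded differently in the lines, the difference in log2 fold change, CAL-29 minus 5637, was tested over all 12 libraries. It was called for 13 members, 35.1% against 15.7% of 15395 genes, with 7 members higher in CAL-29 cells (8.62% of all genes) and 6 lower (7.11%). Of the called differences, that of BIRC3 was the largest, at 2.72 ± 0.08 (adjusted p = 6.14e-21), followed by FAS at 1.35 ± 0.11 (adjusted p = 3.89e-11) and CASP10 at 1.03 ± 0.11 (adjusted p = 9.29e-09). These 3 were also the only members with a called difference of at least 1, found above 1 for 2.67% and below −1 for 2.23% of all genes. At an adjusted p below 0.05 the difference was positive for 14 members and negative for 11, 67.6% against 50.4% of all genes (28.5% and 21.9%). The pro-survival genes MCL1 (−0.74 ± 0.05), BCL2L2 (−0.54 ± 0.06) and BCL2L1 (−0.52 ± 0.06) had a lower log2 fold change in CAL-29 than in 5637 cells. The other pro-survival genes, BCL2A1 (2.38 ± 0.44, adjusted p = 4.85e-05) and BCL2 (0.46 ± 0.25, adjusted p = 0.132), had a higher one, but neither difference was called. Differences were also called for TNFRSF10B (−0.63 ± 0.06), CFLAR (−0.61 ± 0.07), CYCS (0.47 ± 0.06) and BMF (0.57 ± 0.08).

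BOK, BIRC2 and BIK moved the same way in both lines but to different extents. BOK fell further in CAL-29 cells (difference −0.61 ± 0.08, adjusted p = 2.85e-07), BIRC2 fell further in 5637 cells (0.57 ± 0.07, adjusted p = 8.42e-08) and BIK rose further in CAL-29 cells (0.62 ± 0.10, adjusted p = 4.87e-06). The BIK difference lay close to the threshold and was lost without any of 8 libraries taken out singly, all but CAL-29 siCtrl replicates 1, 2 and 3 and 5637 siKMT9α#1 replicate 3, at values from 0.59 to 0.65, and in 3 other settings (a minimum of 10 counts in every library, RLE size factors and every transcript row tested), at values from 0.60 to 0.61. BOK kept its difference in every setting but scaling by total counts, where it was −0.49. That scaling moved the median difference of all genes by 0.12 and the share of called genes that were higher in CAL-29 cells from 54.8% to 72.4%. For TNFRSF10A, CASP6, APAF1, PMAIP1, BID and CASP8, the other members called in the same direction in both lines, no difference was called, with values between −0.26 and 0.43. At an adjusted p below 0.05, all of these but TNFRSF10A (adjusted p = 0.1955) did differ, with adjusted p from 0.000718 (BID) to 0.038 (CASP8).

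**Figure D3:**
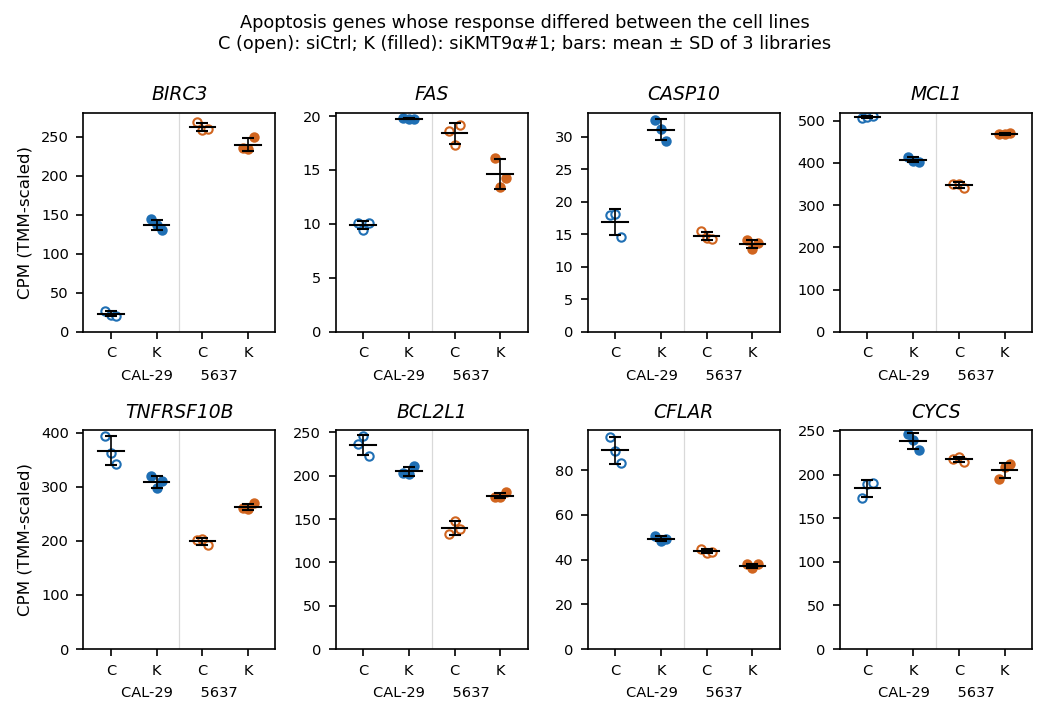
Level in CPM (vertical axes, starting at 0) of 8 apoptosis genes whose response to the knockdown differed between the lines, in every library. Open points (C) are siCtrl and filled points (K) siKMT9α#1 libraries, blue for CAL-29 and orange for 5637, and bars are the mean ± SD of 3 libraries. BIRC3, FAS, CASP10 and CYCS rise in CAL-29 cells and have knockdown means below the controls in 5637 cells, and MCL1 falls in CAL-29 cells (mean 509 to 408 CPM) and rises in 5637 cells (347 to 469 CPM).

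Before knockdown the lines already differed in many of these genes. Between the siCtrl libraries, 11 members were higher and 10 lower in CAL-29 than in 5637 cells, 56.8% against 59.8% of all genes (29.0% higher and 30.7% lower), a share near the background. At an adjusted p below 0.05, 13 were higher and 17 lower, 81.1% against 85.4% of all genes (42.9% and 42.5%). Called differences of at least 1 were found for 4 higher and 7 lower members, against 16.6% and 16.7%, and the control groups did not overlap for 30 members, beside 85.1% of all genes. BCL2A1 (log2 difference −5.95 ± 0.26), BIRC3 (−3.58 ± 0.06), BIK (−2.32 ± 0.07), TNFRSF10D (−1.60 ± 0.08), BIRC2 (−1.59 ± 0.05), BAD (−1.23 ± 0.06) and BAX (−1.12 ± 0.06) were lower in CAL-29 cells. BOK (1.49 ± 0.05), XIAP (1.48 ± 0.05), RIPK1 (1.26 ± 0.06), BMF (1.08 ± 0.05) and CFLAR (0.96 ± 0.05) were higher. These control values rest on separate tables, and medium, reagent and siRNA dose go with the line.

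The site of the siRNA guide seed was found in the longest annotated 3′ UTR of 7 of the 37 members, 18.9%, against 15.1% of 13164 genes with such a UTR tested in CAL-29 and 15.5% of 12919 in 5637 cells. The 7 were CFLAR with 3 sites and BOK, BIRC2, PMAIP1, DIABLO, TNFRSF10B and TNFRSF10D with 1 each. BOK and PMAIP1, shown above, also have an A after the site. Among the members that fell in both lines, 3 of 5 (60%) held it, BOK, BIRC2 and PMAIP1, against 41% of the 1120 such genes in all, and among those that rose in both lines 0 of 5 held it, against 7.43% of 1103. In CAL-29 cells the median log2 fold change was −0.85 over members with the site and 0.11 over members without, and −0.26 and 0.04 over all genes. In 5637 cells it was −0.23 and 0.06 over members and −0.31 and 0.03 over all genes. TNFRSF10B and TNFRSF10D hold the site and rose in 5637 cells, and DIABLO holds it and was called in neither line. CASP6 and APAF1 fell in both lines without it. The transcript with the longest UTR need not be the one counted, and the part of the site in these changes was not tested.

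**Figure D4:**
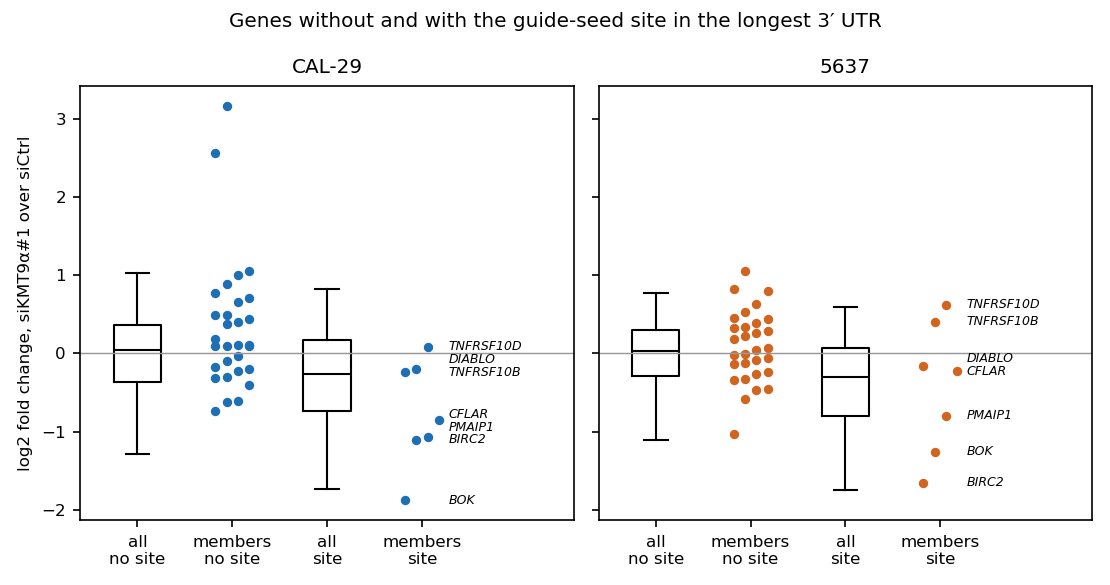
Log2 fold change of siKMT9α#1 over siCtrl (vertical axis) in CAL-29 (left) and 5637 cells (right) for genes without and with the guide-seed site in their longest 3′ UTR. Boxes are all genes tested (median, quartiles and whiskers from the 5th to the 95th percentile) and dots are the apoptosis genes. The median of all genes with the site is −0.26 in CAL-29 and −0.31 in 5637 cells, and BOK, BIRC2 and PMAIP1 lie below it in both.

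A wider list of 50 genes around the same pathways gave a similar mix. In CAL-29 cells 46 of them were tested, with 9 upregulated and 7 downregulated (34.8% called), and in 5637 cells 44 were tested, with 8 upregulated and 11 downregulated (43.2%), against the 30.0% and 35.6% over all genes.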

How the data were processed

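RNAseq libraries of CAL-29 and 5637 cells treated with siCtrl or siKMT9α#1 were used, 3 per group, grouped by the sample titles. The titles mark a library as control or siRNA only, and the identity of the siRNA, siKMT9α#1, comes from the study's text. The authors used STAR to align reads to hg19 and HOMER with its defaults to count them per RefSeq transcript. The deposited values are estimated counts that were not normalized, and 37.3% of them are not whole. The deposited tables also hold the authors' edgeR results (log2 fold change, p-value and adjusted p-value), which entered no step here. The kit and the use of strand in counting are not given in the sources used here.

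For each of 23064 symbols the transcript row with the most counts in a line was kept, after rounding. With edgeR 4.0.16 in R 4.3.3, rows were filtered with filterByExpr, scaled with TMM and tested with the quasi-likelihood F test in each line, with the siRNA as the only term. The difference between the lines was the interaction contrast over all 12 libraries. Genes were called at an unadjusted p below 1e-06, with Benjamini-Hochberg adjusted p over all genes tested. The study's methods give the same value without saying whether p was adjusted, so the numbers of called genes need not equal the study's. The standard error is the log2 fold change divided by the square root of F. Pairs of replicates gave a chi-square of 2.29 to 12.7 per degree of freedom, above sampling noise. The highest values, 8.47 and 12.7, were those of CAL-29 siCtrl replicate 1 with replicates 2 and 3. Replicates 2 and 3 of that group gave 3.38, and no pair of the other groups exceeded 4.09. The chi-square pools many genes, so it does not show whether depth limits the precision for a single member. Alternatives were other filters, scalings and thresholds, DESeq2 1.42.0, edgeR's likelihood ratio test, the replicate number as a term, other transcript rows, a joint fit and each library left out in turn. The fits were tested on simulated counts.

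3′ UTRs, positions, overlapping genes and sequences came from the GENCODE annotation lifted to GRCh37. UTRs of at least 50 bases were searched on the transcript strand for ACATTCA. Every member was named. Values per library were given for N6AMT1, BIRC2, the 10 members called in the same direction in both lines, those called in opposite directions and those whose difference was called and at least 1. Of the wider list, genes called in both lines with a change of at least 1 were named, and some results of that list are not reported here. Other values per library, of TNFRSF10D, CFLAR, BCL2A1, TNFRSF10C and HRK, were chosen after being seen. The members and lists were chosen with earlier results of these data known. No protein sequence was used here.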

Additional observations from a re-analysis of the deposited data

Results flagged for a closer look

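All 13 results stood out because the change upon KMT9α knockdown differed between the lines by a test of the difference itself (edgeR quasi-likelihood test of CAL-29 minus 5637 over 12 libraries, p below 1e-06). The differences are given on the log2 scale with their standard error and Benjamini-Hochberg adjusted p. BIRC3 differed by 2.72 ± 0.08 (adjusted p = 6.14e-21), FAS by 1.35 ± 0.11 (adjusted p = 3.89e-11) and CASP10 by 1.03 ± 0.11 (adjusted p = 9.29e-09), each with a rise in CAL-29 cells and a value below 0 in 5637 cells. CYCS differed by 0.47 ± 0.06 (adjusted p = 2.83e-07) with the same pair of signs. MCL1 differed by −0.74 ± 0.05 (adjusted p = 1.74e-12), TNFRSF10B by −0.63 ± 0.06 (adjusted p = 2.90e-09) and BCL2L1 by −0.52 ± 0.06 (adjusted p = 4.76e-08), each below 0 in CAL-29 cells and higher with knockdown in 5637 cells. BMF differed by 0.57 ± 0.08 (adjusted p = 6.71e-07), being lower with knockdown in 5637 cells. CFLAR differed by −0.61 ± 0.07 (adjusted p = 3.29e-08) and BOK by −0.61 ± 0.08 (adjusted p = 2.85e-07), both below 0 in both lines and further so in CAL-29 cells. BIRC2 differed by 0.57 ± 0.07 (adjusted p = 8.42e-08), with the larger decrease in 5637 cells. BCL2L2 differed by −0.54 ± 0.06 (adjusted p = 1.80e-08), with the larger increase in 5637 cells, and BIK by 0.62 ± 0.10 (adjusted p = 4.87e-06), with the larger increase in CAL-29 cells. The line cannot be told apart from siRNA dose, reagent and medium in any of these.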

How the results depend on the processing

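In CAL-29 cells 10 members were higher and 8 lower. With each library left out in turn these counts ran from 6 to 10 and from 5 to 8, the lowest without siCtrl replicate 2 (both counts) and without siKMT9α#1 replicate 1, 2 or 3 (the lower count). Scaling by total counts left 5 lower members in CAL-29 cells and moved the median log2 fold change of all genes by 0.08. The calls lost were those of RIPK1 (−0.32), MCL1 (−0.24) and CASP6 (−0.53). Whether more than this shift was involved was not tested. At an adjusted p below 0.05 (edgeR) there were 13 lower members in CAL-29 and 15 in 5637 cells, differences between the lines for 14 and 11 members, and 17 members lower in CAL-29 than in 5637 control cells. Requiring a change of at least 1 beside a p below 1e-06 left 3 higher and 3 lower members in CAL-29 cells, 1 and 3 in 5637 cells, differences for 3 and 0 members, and 4 members higher in CAL-29 control cells. The guide-seed site was in 4 members with the shortest in place of the longest 3′ UTR and in 2 when an A had to follow it. The counts at other thresholds and with other UTR windows follow from those settings. With single libraries left out, calls over all genes in CAL-29 cells did not only fall. They went from 4402 to 5469 without siCtrl replicate 1 and to 3119 without siKMT9α#1 replicate 3. Why the counts moved with the left-out library was not tested. Sign changes touched only members that were not called. Over left-out libraries, HRK ran from −0.50 to 0.056 and CASP9 from −0.14 to 0.061 in CAL-29 cells, and TNFRSF10C ran from −0.20 to 0.23, BBC3 from −0.0096 to 0.10, CASP9 from −0.11 to 0.074 and CASP2 from −0.033 to 0.022 in 5637 cells. With scaling by total counts CASP9 was at 0.043 in CAL-29 and BBC3 at −0.011 in 5637 cells. The median of all genes moved by 0.08 in CAL-29 and −0.054 in 5637 cells with that scaling. Whether more than this was involved was not tested. Over single members and all settings, 65 calls were lost and 35 gained.

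Same-numbered siCtrl and siKMT9α#1 libraries deviated together only weakly (correlations 0.14, 0.012 and 0.059 in CAL-29 and 0.12, −0.008 and 0 in 5637 cells), so the numbers were not taken as pairs. With the replicate block, 12 members were higher and 9 lower in CAL-29 cells, where TNFRSF10B, BCL2A1 and BAD gained a call, and 12 and 8 in 5637 cells. Over all genes, calls went from 4402 to 6327 in CAL-29 and from 5104 to 5378 in 5637 cells.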

Other observations

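Outside the 37 members, several genes of the wider apoptosis list moved in 1 line or in opposite directions. They were chosen after their values were seen, and each p is from the same edgeR quasi-likelihood fits. TNFSF10, the gene of the death ligand TRAIL, was at 11.0, 12.6 and 12.5 CPM with siCtrl and 63.3, 74.3 and 78.1 CPM with siKMT9α#1 in CAL-29 cells (log2 fold change 2.57 ± 0.08, adjusted p = 1.96e-16). In 5637 cells TNFSF10 was at 14.4, 12.5 and 13.3 CPM with siCtrl and 13.3, 12.7 and 13.6 CPM with siKMT9α#1, with overlapping groups, and the difference between the lines was 2.61 ± 0.12 (adjusted p = 6.41e-17). TNFRSF1B, the second TNF receptor, rose in CAL-29 cells (1.99 ± 0.10), and its response differed between the lines by 1.87 ± 0.13. TNFRSF21 (death receptor 6) fell in 5637 cells (−1.55 ± 0.03) and differed by 1.65 ± 0.06. TRAF1, an adaptor that binds BIRC2 and BIRC3, fell in CAL-29 cells (−1.39 ± 0.13) and differed by −1.14 ± 0.18.

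Genes of caspase substrates were split. LMNB1 rose in both lines (1.38 ± 0.05 and 0.30 ± 0.03), LMNA rose in 5637 cells (0.96 ± 0.03), and PARP1 rose in CAL-29 cells (0.91 ± 0.06) and fell in 5637 cells (−0.24 ± 0.03). BIRC5 (survivin) was also called in opposite directions, at 0.55 ± 0.07 in CAL-29 and −0.30 ± 0.05 in 5637 cells.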
